A study of Mus musculus with 8 samples.

Results

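Peaks of DNA N6-methyladenine (6mA, a methyl group on adenine) were described at 34 mouse genes that write, read or remove cytosine methylation and methylation of lysine 9 of histone H3 (H3K9). A peak belonged to a gene where the authors' annotation gave that gene's symbol, and each peak counted once per symbol. Of the 34 genes, 24 had at least 1 peak in at least 1 of 8 peak lists, and together they held 117 of the 90798 peaks in these lists. The study compared embryonic brains with neural tube defects against normal embryonic brains, and mouse embryonic stem cells grown without folate against the same cells with folate. Its assay was 6mA MeDIP-seq, in which sonicated genomic DNA is immunoprecipitated with an antibody kit against 6mA and sequenced.

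The NTD lists came from brains of embryos whose mothers ate a low-folate diet and received 1.5 mg/kg of the folate antagonist methotrexate (MTX) by intraperitoneal injection at gestational day 7.5. Embryos were examined between embryonic days 9.5 and 10.5, and those of the NTD group were delayed, small and mostly showed hindbrain malformation or spina bifida, so that drug, diet, delay and malformation cannot be told apart in them. The CON lists came from normal brains of saline-treated animals with closed neural tubes, and the diet and the strain of the mice are not given in the sources used here. In the brain tables the groups are named Case and Control, and Case was taken to be NTD, the only brain group besides the normal one. There were 3 lists of each, from repeat immunoprecipitates under 1 record per group, and no label says whether each came from a separate embryo, litter or pool. By the tables' names all 3 lists of a group were called against the same input, so input and group cannot be told apart. The p-values therefore measure only the spread between these lists, which may be technical. The FA0 and FA4 lists, 1 of each, came from the embryonic stem cell line Sv129, split after thawing into medium without folate (FA0) or with 4 mg/L (FA4), so nothing at the cells has a replicate check. The brain lists held 2797 to 7100 peaks, the FA0 list 38699 and the FA4 list 20186. The sequencing depth behind them is unknown, because the lists give tags in peaks and no library totals.

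In mammals, DNA methyltransferases place methyl groups on cytosine, mostly at CG dinucleotides, and TET dioxygenases oxidise them. H3K9 methylation is placed by SET-domain enzymes, bound by HP1 proteins and removed by LSD1 and JmjC-domain demethylases, and it marks heterochromatin together with cytosine methylation. Folate feeds the one-carbon cycle that makes S-adenosylmethionine, the methyl donor of these methyltransferases, and several members of both systems are needed for mouse embryos to develop.

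The long cell lists had peaks at more of the 34 genes than the brain lists, while among the brain lists the number did not follow list length. The NTD lists had peaks at 6, 6 and 4 of the 34 genes (replicates 1, 2 and 3), where 11.5%, 11.2% and 13.4% of 21887 protein-coding genes had one. The CON lists had peaks at 2, 6 and 7 of them, against 5.92%, 12.8% and 8.48% of protein-coding genes. The shares of the 34 genes were thus 17.6%, 17.6% and 11.8% for NTD and 5.88%, 17.6% and 20.6% for CON, near the background in NTD replicate 3 and CON replicate 1 and above it in the other 4. This background is not matched for length. Its genes had a median of 17.2 kb, against 46.2 kb for the 34, and longer genes had peaks more often. Of the 8 members of 100 kb and over, 3, 4 and 1 had a peak in NTD replicates 1, 2 and 3 (32.6%, 31.4% and 37.1% of all such genes). In CON replicates 1, 2 and 3 it was 1, 3 and 3 (16.5%, 35.7% and 24.2%). Of the 13 members of 20 to 50 kb, 2, 2 and 2 had one in NTD (10.3%, 10.5% and 12.2%). In CON 0, 2 and 3 of those 13 did (6.03%, 11.8% and 8.01%). In the FA0 list 20 of the 34 genes had a peak (58.8%, with 48.3% of protein-coding genes), and in the FA4 list 11 did (32.4%, with 31%). Taking the groups apart, 11 genes had a peak in any NTD list (background 27.2%) and 12 in any CON list (21.8%). Over all 6 brain lists 17 genes had a peak, against a background of 38.2%, and over both cell lists 21 did, against 56.2%. Peaks in brain and in cells were assigned to 14 genes (41.2%, background 28.1%), in brain alone to 3 (8.82%, background 10.1%; Prdm16, Kdm4b and Morc2a) and in cells alone to 7 (20.6%, background 28.1%).

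**Figure D1:**
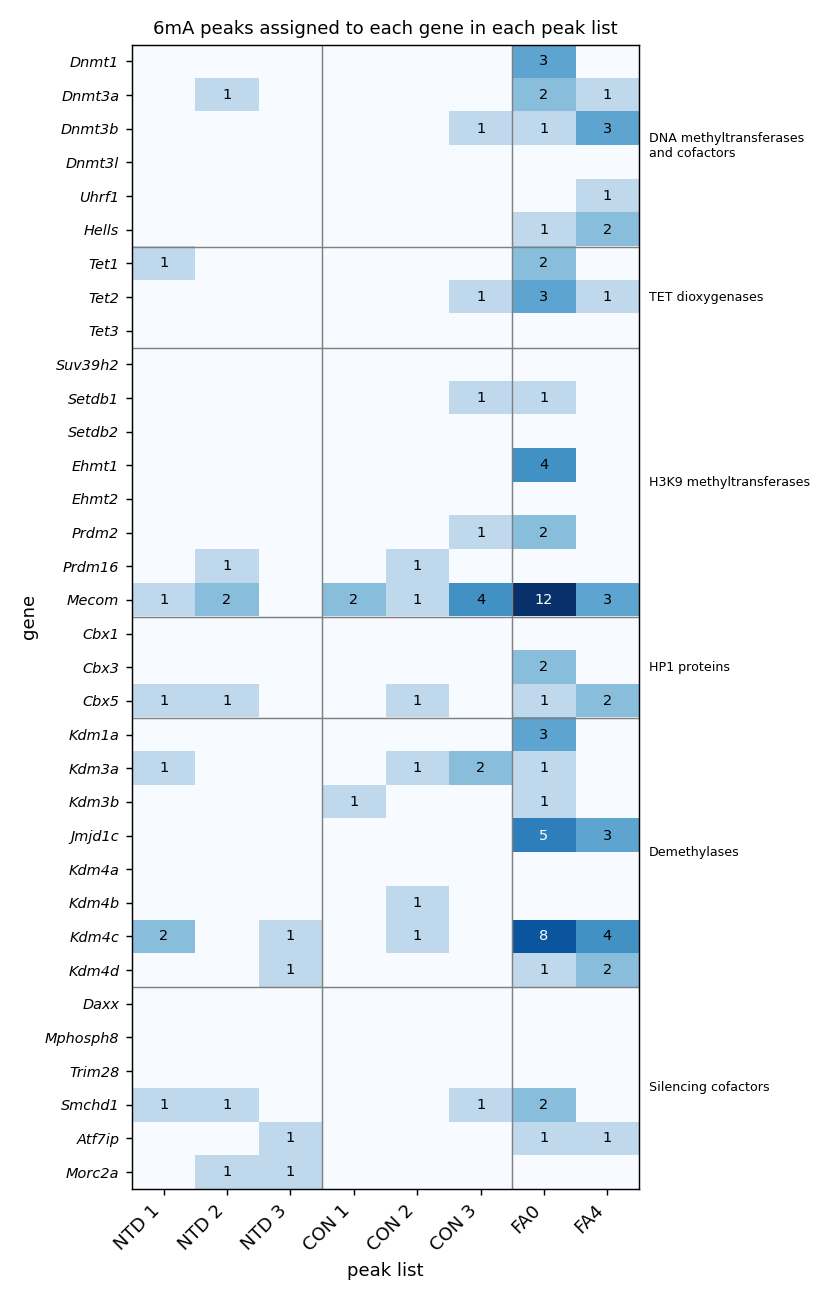
Number of 6mA peaks assigned to each of the 34 genes (rows, grouped by role) in each peak list (columns), with empty cells for 0 and darker blue for more peaks. Most cells of the 6 brain columns are empty, Mecom has a peak in 5 of them, and the FA0 column has the most peaks.

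Longer genes had peaks more often, among the 34 as among all protein-coding genes. The median length was 46.2 kb for the 34 genes and 17.2 kb for all protein-coding genes. Of the genes under 20 kb, 1 of 5 had a peak in any of the 8 lists, with a background of 52.6% in that length class. Between 20 and 50 kb 8 of 13 had one (background 73.8%), between 50 and 100 kb 7 of 8 (87.9%), and at 100 kb and over 8 of 8 (95.1%). Over all lengths 70.6% of the 34 genes and 66.3% of protein-coding genes had a peak. The brain lists gave 0 of 5, 6 of 13, 5 of 8 and 6 of 8 in these 4 classes, against 25.9%, 39.6%, 55.8% and 76.9%. The cell lists gave 1 of 5, 7 of 13, 6 of 8 and 7 of 8, against 41.5%, 63.4%, 78.3% and 89.3%.

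**Figure D2:**
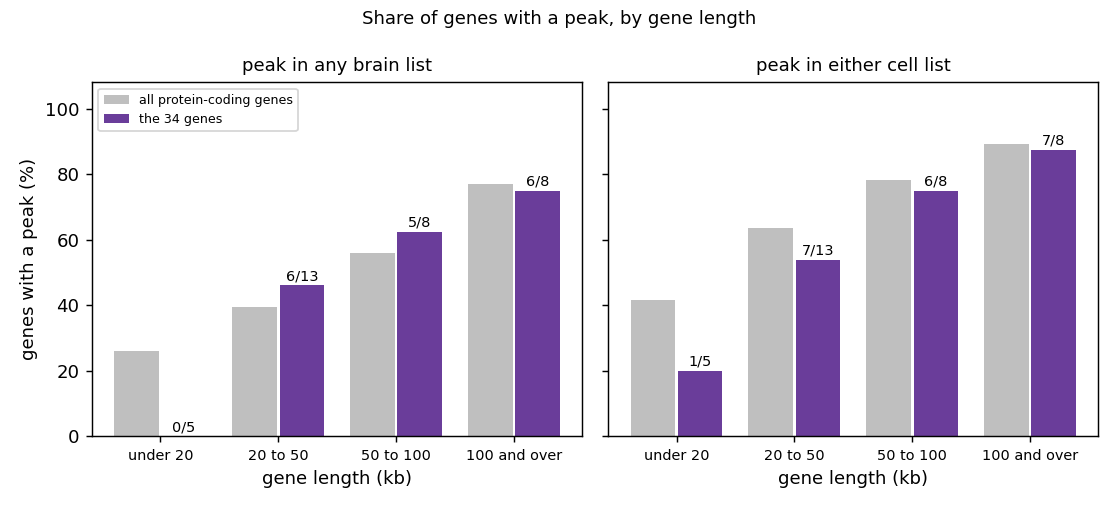
Percent of genes with at least 1 peak in any brain list (left) or either cell list (right) by gene length, for all protein-coding genes (grey) and the 34 genes (purple, with the count of genes above each bar). Both sets of bars climb with length, and the 8 genes of 100 kb and over have a peak in 6 cases in brain and 7 in cells.

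The 10 genes with no peak in any list were Dnmt3l, the inactive partner of the de novo methyltransferases, Tet3, the H3K9 methyltransferases Suv39h2, Setdb2 and Ehmt2 (G9a), Cbx1 (HP1 beta), the demethylase Kdm4a, the histone chaperone Daxx, Mphosph8 of the HUSH silencing complex and the corepressor Trim28 (KAP1). Their lengths ran from 6.19 to 94.8 kb with a median of 20.8 kb, while the genes with a peak had a median of 70.1 kb. The symbol rule also leaves out peaks that lie inside a gene but that the authors gave to a neighbour: there were 17 such peaks, 1 of them inside Tet3 (FA4, assigned to Mir6374) and 1 inside Cbx1 (FA4, assigned to Gm11517). A further 2 FA0 peaks inside Prdm16 went to 5930403L14Rik and 1 inside Morc2a went to Tug1, so both genes held cell peaks that do not count under their own symbol.

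**Figure D3:**
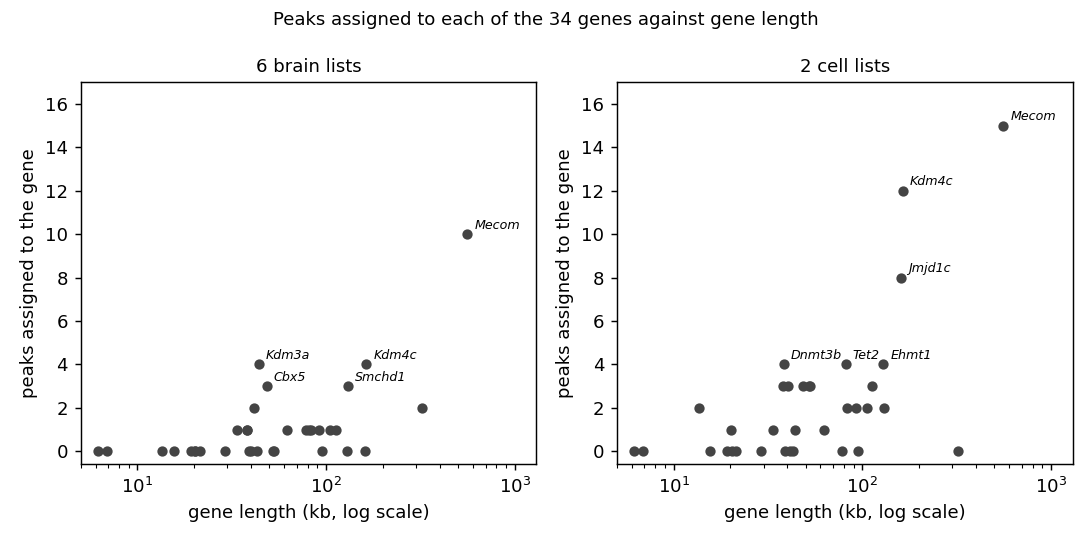
Peaks assigned to each of the 34 genes (vertical axis) against gene length in kb (horizontal, log scale), in the 6 brain lists together (left) and the 2 cell lists together (right). Mecom, the longest gene, has the most peaks in both panels, with 10 and 15.

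Among the genes for placing and keeping cytosine methylation, most peaks were in the stem cells, with 2 brain peaks and 14 cell peaks over 6 genes. The cell lists also held most peaks in general, with 79 of the 117 member peaks and 58885 of all 90798 peaks. Dnmt1, the maintenance methyltransferase, had no brain peak, 3 peaks in FA0 and none in FA4. Its FA0 peaks had 7 to 8 tags, 2 lay in introns and 1 lay 16.5 kb upstream of the annotated start. Dnmt3a, a de novo methyltransferase, had a brain peak in NTD replicate 2 alone, 39.4 kb before its start (chr12:3765435-3765826, 9 tags, fold enrichment 3.19). Fold enrichment here is the authors' ratio of tags in a peak to the background expected there. Dnmt3b, the other de novo enzyme, had its brain peak in CON replicate 3, in an intron 18.5 kb after the start (chr2:153679129-153679394, 11 tags, 3.25-fold). In cells Dnmt3a had 2 peaks in FA0 and 1 in FA4, near the ratio of 1.92 between all peaks of these lists. Dnmt3b had 1 in FA0 and 3 in FA4. Uhrf1, which recruits Dnmt1 to newly copied DNA, had 1 peak, in FA4, 19.1 kb upstream of its start. Hells, a chromatin remodeller needed for cytosine methylation of repeats, had 1 peak in FA0 and 2 in FA4, and its upstream FA4 peak at chr19:38914770-38915018 had 10 tags and a fold of 3.84.

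Of the TET dioxygenases, which oxidise 5-methylcytosine, Tet1 had 1 intron peak in NTD replicate 1 (chr10:62861050-62861300, 7 tags, 2.57-fold) and 2 in FA0. Tet2 had 1 intergenic peak in CON replicate 3, 42.6 kb before its start (chr3:133587650-133587912, 10 tags, 2.98-fold), with 3 in FA0 and 1 in FA4. The FA4 peak of Tet2 at chr3:133592014-133592425 also lay upstream (47.8 kb), 4101 bases from the CON peak, with 10 tags and a fold of 3.84. None of the peaks at Tet1 or Tet2 recurred at the same position.

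The H3K9 methyltransferases held 36 peaks, of which 25 were assigned to Mecom. Mecom encodes a PRDM-family zinc finger protein (EVI1 and its long form MDS1-EVI1) with H3K9 methyltransferase activity, and at 558 kb it was the longest of the 34 genes. It was the only member with a peak in all 3 CON lists (background 0.891% over genes of all lengths). Of genes of 100 kb and over, 16.5%, 35.7% and 24.2% had a peak in CON replicates 1, 2 and 3. Mecom had 2, 1 and 4 peaks in CON replicates 1, 2 and 3 and 1, 2 and 0 in NTD replicates 1, 2 and 3, so the groups overlapped. Of its 25 peaks, 23 lay inside the gene. The NTD peaks lay in its last part: an exon peak in replicate 1 (chr3:29963052-29963276, 6 tags, 2.25-fold), and in replicate 2 an intron peak (chr3:30005935-30006208, 7 tags, 2.55-fold) and a peak classed as upstream of a short transcript (chr3:30022382-30022596, 8 tags, 2.87-fold). The CON peaks were spread over the gene and its 5′ side. CON replicate 1 had an intron peak (chr3:30094905-30095129, 11 tags, 2.38-fold) and an intergenic one 38.4 kb before the start (chr3:30548058-30548289, 8 tags, 2.52-fold). CON replicate 2 had a peak 5700 bases before an internal start (chr3:30243894-30244149, 6 tags, 2.23-fold). In CON replicate 3 a promoter-class peak lay 549 bases before an internal annotated start (chr3:30238723-30239017, 8 tags, 2.44-fold), and the others were upstream of a short transcript (chr3:30054178-30054490, 8 tags, 2.44-fold) and in introns (chr3:30416282-30416532, 7 tags, 2.17-fold, and chr3:30478778-30479029, 9 tags, 2.71-fold). In cells Mecom had 12 peaks in FA0 and 3 in FA4, with 6 to 9 tags.

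The other H3K9 methyltransferases had at most 4 peaks each. Setdb1, which acts with KRAB zinc finger proteins, had a CON replicate 3 peak 11.0 kb upstream (chr3:95368063-95368322, 10 tags, 2.98-fold) and an FA0 peak 5155 bases upstream. Ehmt1 (GLP), the partner of G9a, had no brain peak and 4 intron peaks in FA0, 1 of them with 11 tags and a fold of 3.85 (chr2:24907410-24907687). Prdm2 (RIZ) had an intron peak in CON replicate 3 (chr4:143202841-143203062, 8 tags, 2.44-fold). An FA0 peak of Prdm2 lay 378 bases from it (chr4:143203441-143203789) and had 17 tags, the most at any of the 34 genes. Its fold was 2.67, and the local background calculated from its tags and fold was 5.75, above the common 2.12 of the list. Prdm16, a relative of Mecom with a role in neural stem cells, had 1 peak in NTD replicate 2 (chr4:154436099-154436346, 7 tags, 2.55-fold) and 1 in CON replicate 2 (chr4:154412359-154412637, 7 tags, 2.55-fold) and none under its symbol in cells. The authors classed both as intergenic, and both lay inside the reference span of Prdm16.

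**Figure D4:**
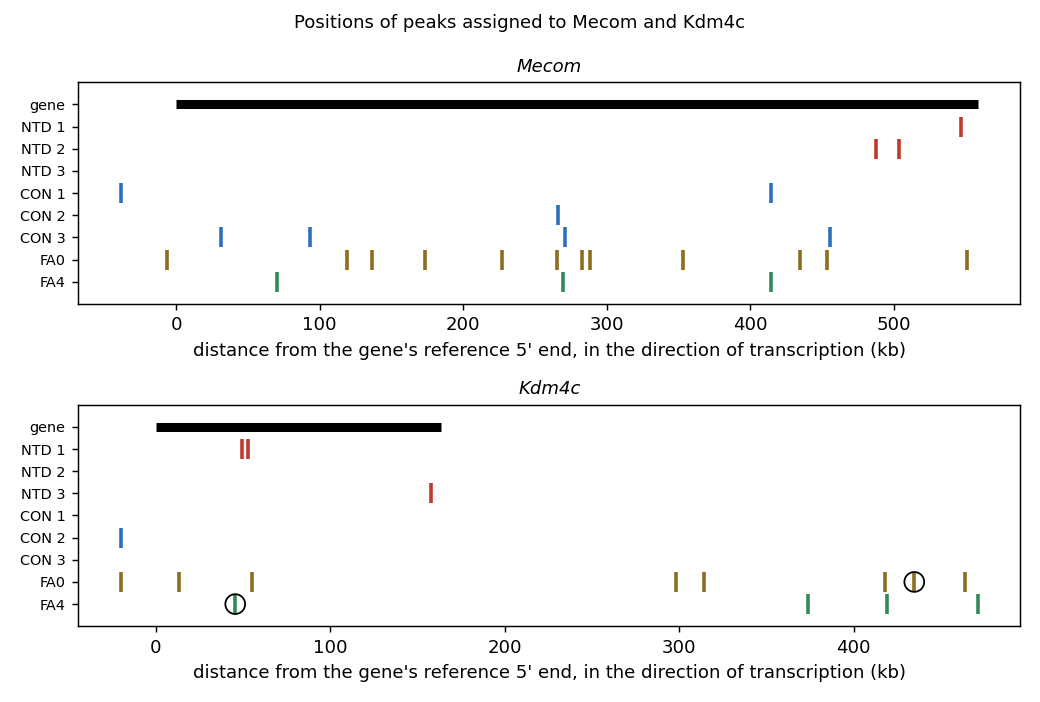
Positions of the peaks assigned to Mecom (top) and Kdm4c (bottom) in each list, as distance in kb from the gene's reference 5′ end; the black bar is the gene and circles mark peaks with a q-value of at most 0.05. Mecom peaks spread along the gene, the NTD ones in its last part, and 8 cell peaks of Kdm4c lie beyond its 3′ end.

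HP1 proteins bind methylated H3K9. Cbx5 (HP1 alpha) was among the members with a peak in 3 of the 6 brain lists, and 2 of its brain peaks were of the promoter class. In NTD replicate 1 the peak lay 1491 bases after the start (chr15:103238218-103238433, 9 tags, 3.21-fold), and in NTD replicate 2 it lay 1407 bases before it (chr15:103241204-103241418, 10 tags, 3.51-fold), with 2770 bases between them. The authors gave the NTD replicate 2 peak to Hnrnpa1 as well, and it lay outside the reference span of Cbx5. In CON replicate 2 the peak was in an intron (chr15:103208928-103209218, 6 tags, 2.23-fold). In the cells Cbx5 had 1 intron peak in FA0, and in FA4 an exon peak (chr15:103191633-103192077, 8 tags, 3.14-fold) and one 2341 bases upstream of an internal start. Cbx3 (HP1 gamma) had 2 peaks in FA0, both outside the gene and both over a raised local background.

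Smchd1, an SMC-hinge protein that acts in X inactivation and imprinting, also had peaks in 3 brain lists. They were an intron peak in NTD replicate 1 (chr17:71404349-71404573, 7 tags, 2.57-fold), a promoter-class peak 1455 bases after the start in NTD replicate 2 (chr17:71473781-71473995, 8 tags, 2.87-fold) and an intron peak in CON replicate 3 (chr17:71425435-71425735, 7 tags, 2.17-fold), and 2 further intron peaks were in FA0. Atf7ip, the partner of Setdb1, had a peak in NTD replicate 3 classed as upstream (chr6:136544146-136544420, 7 tags, 2.50-fold) and 1 intron peak in each cell list. Morc2a, an ATPase recruited by the HUSH complex, had peaks in NTD replicate 2 (intron, chr11:3652026-3652266, 7 tags, 2.55-fold) and NTD replicate 3 (exon, chr11:3688085-3688434, 7 tags, 2.50-fold), and none under its symbol in CON or in cells. Its 2 peaks lay in different parts of the gene.

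The promoter-class peaks at Cbx5 and Smchd1 lay beside, not over, the sequence just before the start. The 250 bases before each start are shown because these 2 genes had promoter-class peaks in the NTD lists, with CG dinucleotides, the sites of cytosine methylation, in capitals. They are from RefSeq, build GRCm38.p6, on the minus strand, written 5′ to 3′, at chr15:103239853-103240102 for Cbx5 (22 CG) and chr17:71475344-71475593 for Smchd1 (33 CG).
Cbx5: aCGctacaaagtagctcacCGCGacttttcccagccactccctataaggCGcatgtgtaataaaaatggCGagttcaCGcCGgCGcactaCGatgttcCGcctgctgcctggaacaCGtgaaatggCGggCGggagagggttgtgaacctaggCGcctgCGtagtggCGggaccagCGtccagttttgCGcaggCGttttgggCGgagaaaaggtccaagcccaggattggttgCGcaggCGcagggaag
Smchd1: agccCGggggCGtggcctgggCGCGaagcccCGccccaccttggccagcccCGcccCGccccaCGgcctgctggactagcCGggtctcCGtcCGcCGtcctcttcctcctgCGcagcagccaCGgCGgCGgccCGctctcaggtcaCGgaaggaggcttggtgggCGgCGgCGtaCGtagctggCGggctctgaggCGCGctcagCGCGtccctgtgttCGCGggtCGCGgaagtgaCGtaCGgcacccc
The nearest peak lay 1102 bases from the Cbx5 window of 300 bases around its start, in NTD replicate 2, with that of NTD replicate 1 at 1370 bases on the other side, and 1299 bases from that of Smchd1. The table of promoters held 49 windows for 31 of the 34 genes, without Prdm2, Kdm3b and Kdm4b. None of the 49 overlapped a peak in any of the 8 lists, where 1.28% of all 32851 windows did, and 0.0457% to 0.621% in a single list. The members' windows were rich in CG: the median was 20 CG in 250 bases, against 6 over all windows, and at least 1 CG (searched as CG, which reads the same on both strands) stood in 93.9% of them and in 92.1% of all. Their median A+T content was 36%, against 47.6% over all windows.

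The demethylases had 39 peaks under their symbols, against 36 at the H3K9 methyltransferases. Of the 39, 16 were assigned to Kdm4c, and some of these lay far outside the gene. Kdm4c removes di- and trimethylation of H3K9. It had 2, 0 and 1 peaks in NTD replicates 1, 2 and 3 and 0, 1 and 0 in CON replicates 1, 2 and 3, and the groups overlapped. The NTD peaks were in introns (replicate 1, chr4:74291620-74291857, 7 tags, 2.57-fold, and chr4:74294917-74295195, 8 tags, 2.89-fold; replicate 3, chr4:74399920-74400168, 7 tags, 2.50-fold). The CON replicate 2 peak lay 19.9 kb before the start (chr4:74222463-74222698, 8 tags, 2.87-fold). In cells the gene had 8 peaks in FA0 and 4 in FA4, and 8 of these 12 lay 135 to 307 kb beyond its 3′ end, so only 6 of its 16 peaks were inside the gene.

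Kdm4c also held the only 2 of the 117 peaks with a q-value of at most 0.05, which 2.63% of all peaks had. They were an FA0 peak with 14 tags and a fold of 4.81 (chr4:74677004-74677344), 425 kb from the start, and an FA4 peak with 12 tags and a fold of 4.54 in an intron (chr4:74287833-74288142), 36.1 kb from the start. These were also the highest folds in FA0 and in FA4 among the 34 genes, and neither overlapped a peak of another list. The reference gives Kdm4c a pair of starts whose upstream sequences differ, shown because the peaks with the highest folds were assigned to this gene. Neither of those peaks lay near these starts. Both are from RefSeq, build GRCm38.p6, plus strand, 5′ to 3′, 250 bases before the start, with CG in capitals: the first is chr4:74242247-74242496 with no CG, and the second chr4:74251629-74251878 with 19.
Kdm4c first start: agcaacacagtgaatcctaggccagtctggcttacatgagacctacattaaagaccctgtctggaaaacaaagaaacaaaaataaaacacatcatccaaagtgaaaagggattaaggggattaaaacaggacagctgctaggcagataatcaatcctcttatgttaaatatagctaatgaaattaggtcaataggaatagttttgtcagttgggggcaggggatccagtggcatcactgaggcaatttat
Kdm4c second start: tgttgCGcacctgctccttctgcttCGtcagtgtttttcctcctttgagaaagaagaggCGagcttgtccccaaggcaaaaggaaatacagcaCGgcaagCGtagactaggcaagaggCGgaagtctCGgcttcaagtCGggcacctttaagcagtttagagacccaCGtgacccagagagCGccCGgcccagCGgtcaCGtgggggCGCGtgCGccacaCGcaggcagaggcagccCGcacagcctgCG
The peak nearest to the second start was in FA0, in an intron, 3647 bases from its window (chr4:74255575-74255971, 8 tags, 2.89-fold).

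Among the other H3K9 demethylases, Kdm3a, which removes mono- and dimethylation, had brain peaks in 3 lists. NTD replicate 1 had an intron peak (chr6:71615925-71616202, 7 tags, 2.57-fold), as had CON replicate 2 (chr6:71592668-71592952, 8 tags, 2.87-fold). CON replicate 3 had one in an intron (chr6:71607844-71608069, 10 tags, 2.98-fold) and one 15.3 kb upstream (chr6:71648153-71648458, 8 tags, 2.44-fold). Kdm3a thus had peaks in 1 NTD list and in 2 CON lists. Kdm3b, its paralog, had an intron peak of 9 tags and fold 2.80 in CON replicate 1, 13.0 kb after the start, and 1 in FA0. Jmjd1c, the remaining Kdm3-family member, had no brain peak, 5 peaks in FA0 with 9 to 11 tags, a pair of them with 10 tags and a fold of 3.53, and 3 in FA4 with 6 to 8 tags. All 8 lay inside the gene, and an FA4 peak lay in an exon (chr10:67220432-67220684, 7 tags, 2.80-fold). Kdm4b, a paralog of Kdm4c, had the brain peak with the highest fold of all 34 genes, of promoter class and 1437 bases after the start, in CON replicate 2 (chr17:56327301-56327672, 11 tags, 3.83-fold), and no other peak. Kdm4d had an intron peak in NTD replicate 3 (chr9:14478269-14478584, 8 tags, 2.82-fold), 1 peak in FA0 and 2 in FA4. Kdm1a (LSD1), a flavin-dependent demethylase, had 3 peaks in FA0 and none elsewhere.

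The NTD and CON brains, compared for the effect of the folate-antagonist model, gave no difference that could be called at any of the 34 genes. There were 18 member peaks in the 3 NTD lists and 20 in the 3 CON lists, with a mean of 6.00 ± 1.73 per NTD list and 6.67 ± 4.04 per CON list (SD, n = 3 each). Relative to list length these were 10.1 ± 3.84 and 15.8 ± 10.2 per 10000 peaks. CON replicate 3 stood apart from the other brain lists with 27.6 per 10000, while the others ran from 5.63 to 12.5, and without it the CON mean was 9.90, within the NTD spread. For each of 13471 genes with a brain peak, the difference in mean peaks was tested by exact permutation of the 6 lists between the groups (20 ways, two-sided, smallest possible p = 0.1). No gene could therefore reach an unadjusted p under 0.05, and the count of such genes was 0. The tested genes included non-coding ones, while 8362 protein-coding genes had a brain peak. Of the 17 members tested, 0 had every NTD list above every CON list (1.28% of all tested genes did) and 0 had the reverse (0.26%). Peaks were found in NTD alone at 5 of the 17 members (29.4%, where 42.1% of tested genes did so), in CON alone at 6 (35.3%, background 28%) and in both at 6 (35.3%, background 29.9%). These counts rest on the authors' symbols. Of the members with CON peaks alone, Prdm2 held NTD replicate 3 peaks inside its span that were given to Mir7021. Setdb1 likewise held an NTD replicate 1 peak that was given to LOC108168884. The smallest exact p was 0.4, at Morc2a (0.667 peaks per NTD list, 0 per CON list, in 2 of 3 NTD lists), and after Benjamini-Hochberg adjustment over all tested genes every member had p = 1. For Mecom the means were 1.00 and 2.33 peaks per list with exact p = 0.5, and for Kdm4c 1.00 and 0.333 with exact p = 0.7. Without NTD replicate 1, Morc2a had both remaining NTD lists above all CON lists. The share of all genes that did so is not given here, so this cannot be set against a background.

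No member had a peak in every NTD list (background 1.7%), and 5 had one in at least 2 (14.7%, background 7.13%): Mecom, Cbx5, Kdm4c, Smchd1 and Morc2a. In CON, Mecom and Kdm3a had peaks in at least 2 lists (5.88%, background 4.57%). Of the 17 genes with a brain peak, 10 had it in a single list (58.8%, with 59.4% of all tested genes).

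In the cells, without and with folate, 56 member peaks were in FA0 and 23 in FA4, a ratio of 2.43 where all peaks gave 1.92. A gene was called where 1 condition had at least 2 times the peaks of the other and at least 3 peaks, and since each condition had 1 list there is no test. Higher in FA0 were 6 members, where 23.3% of 14423 genes with a cell peak passed. They were Mecom (12 against 3), Kdm4c (8 against 4), Ehmt1 (4 against 0), Tet2 (3 against 1), Dnmt1 (3 against 0) and Kdm1a (3 against 0). Higher in FA4 was Dnmt3b (1 against 3), where 3.26% of genes passed. Peaks were in FA0 alone at 10 members (43.8% of genes with a cell peak), in FA4 alone at Uhrf1 (14.3%) and in both at 10 (41.9%). The 14423 genes with a cell peak included non-coding ones, while 12294 protein-coding genes had one. Of the 21 members with a cell peak, 6 were called for FA0, a share near the background. FA0 was the longer list, and with peaks taken as a share of their list 4 of the 6 calls were left (Mecom, Ehmt1, Dnmt1 and Kdm1a, without Kdm4c and Tet2), while Dnmt3b passed again. When FA0 was cut by fold to the length of FA4, 1 of those 6 calls was left. The share of all genes passing under these altered rules is not given here, so the calls left have no background.

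By position, member peaks were most often in introns, and the 5 of the promoter class were all from brain lists. In the brain lists 19 of 38 member peaks were in introns, 7 upstream, 5 in promoters, 5 intergenic and 2 in exons, by the authors' classes. In the cell lists 43 of 79 were in introns, 23 intergenic, 11 upstream, 2 in exons and none in promoters. Over all peaks promoters took 6.45% in brain and 3.15% in cells, and introns 26.1% and 31.9%. All 5 promoter-class peaks of the members lay 549 to 1491 bases from an annotated start. The median distance of member peaks from the start was 16.9 kb in brain and 36.1 kb in cells, shorter in each case than over all peaks (26.6 and 53.1 kb). Of the 117 peaks, 87 lay inside the reference span of their gene, 31 of 38 in brain and 56 of 79 in cells, and some of these carry an upstream or intergenic class because the authors measured from another transcript of the gene.

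No position was found again between conditions of the same kind. Not 1 member peak overlapped, by at least 1 base, a peak of another brain list, where 4.13% of all brain peaks did and each pair of lists shared 0.859% to 3.68%, and 0 of 56 FA0 and 0 of 23 FA4 member peaks overlapped each other (1.8% and 3.44% of all peaks). Brain and cells shared 2 positions, out of 38 brain member peaks each set against both cell lists. By pair of lists, 1.34% to 4.08% of all peaks of a brain list overlapped a cell list. The share over all these pairs together is not given here, so the count of 2 has no pooled background. At Mecom, the CON replicate 1 peak with 11 tags shared 225 bases with an FA4 peak (chr3:30094794-30095152, 6 tags, 2.45-fold), where 3.04% of CON replicate 1 peaks overlapped FA4. The local background of this CON peak was raised. At Kdm4c, the CON replicate 2 peak upstream of the gene shared 202 bases with an FA0 peak (chr4:74222497-74222869, 8 tags, 2.89-fold), where 2.45% of CON replicate 2 peaks overlapped FA0. The nearest pairs that did not overlap were at Mecom (CON replicate 2 and FA0, 136 bases apart), Kdm4d (FA4 and FA0, 212 bases) and Prdm2 (CON replicate 3 and FA0, 378 bases).

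The member peaks were weak, as were most peaks of these lists. They held 6 to 17 tags with a median of 8, the median of all peaks, and folds of 2.13 to 4.81, with none at 5 or more. Within its own list the median member peak stood at percentile 40.2 of fold. In the brain, 0 of 38 member peaks had a q-value of at most 0.05 (1.28% of all brain peaks), and in cells 2 of 79 had (3.36%). The background calculated from tags and fold was raised above the common level of the list at 1 of 38 brain member peaks (2.63%, all brain peaks 11.7%). In FA0 it was raised at 19 of 56 (33.9%, all peaks 35.4%) and in FA4 at 1 of 23 (4.35%, all peaks 39.8%). With such peaks left out 14 of the 34 genes, in place of 20, had a peak in FA0, and the same share over all genes is not given here.

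**Figure D5:**
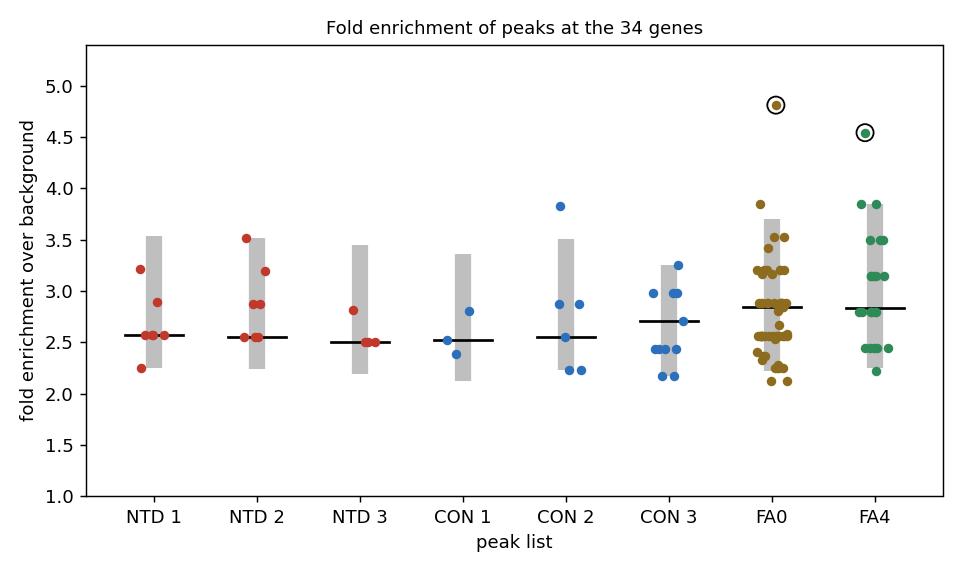
Fold enrichment of each member peak (points) in each list, with the 5th to 95th percentile (grey bar) and median (black line) of all peaks of that list; circles mark a q-value of at most 0.05. All points stay under 5, most lie inside the grey bars, and the 2 circled peaks belong to Kdm4c.

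Of 46 further genes for reading, writing or removing cytosine and H3K9 methylation, 45 were found in the reference and 34 of these had a peak (75.6%, with the background of 66.3% given above). None had its NTD and CON lists separated, where 1.28% of genes with a brain peak had NTD above CON and 0.26% the reverse. By the rule for cells 7 of the 27 with a cell peak were higher in FA0, a share near the background of 23.3%. Among them were the methyl-CpG-binding protein Mbd2 (12 against 4) and Dppa3, which protects cytosine methylation in the early embryo (3 against 0). The 2 of these 27 higher in FA4 (background 3.26%) were Zfp644, a zinc finger partner of G9a (2 against 8), and the insulator protein Ctcf (1 against 3). Most peaks were at the chromodomain gene Cdyl2, with 22 over the 8 lists, and Atrx, the partner of Daxx, had none.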

How the data were processed

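Per the labels and the tables' names, 3 NTD and 3 CON brain immunoprecipitates (named Case and Control) were each called against 1 input of their group, and FA0 and FA4 had 1 immunoprecipitate and 1 input each. Per the submitters' processing notes, cutadapt 1.9.2, Bowtie2 2.2.4 and mm10 were used, and no source used here names a peak caller. The authors deposited 8 peak lists, called per list, with tag counts, −log10 p and q values, and a fold. The background of a peak was calculated here from its tags and fold, taking the fold as (tags + 1) over (background + 1). This form of the fold was assumed, and whether tags are a sum or a pileup height was not settled. The class, symbol and distance columns are the authors' annotation. Lists lack reads outside peaks, so no interval or floor is given, and the labelled tissue could not be checked against markers.

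Rows were reduced to 1 per peak and symbol. Gene lengths, spans and promoter sequences came from RefSeq tables of GRCm38.p6, the assembly behind mm10. Peaks per gene were compared in NTD and CON by an exact permutation test with Benjamini-Hochberg adjustment over all genes with a brain peak, in Python 3.11.15 with numpy 2.4.6, pandas 2.3.3 and scipy 1.17.1, checked on simulated data. The 34 members, the 46 other genes and the comparisons were chosen with earlier results of these data known. Every member was accounted for; named were all brain peaks, and in cells the 10 members with most peaks, promoter and exon peaks and the highest folds. Peak sequences and their base composition were not analysed here. The promoter windows and the overlap of brain with cells were added after the data were seen. Alternatives were a fold or q threshold, genic classes, reference spans, lists of equal length, common background, scaling to list totals, leaving out each replicate, and a replicate block.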

Additional observations from a re-analysis of the deposited data

How the results depend on the processing

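With peaks of fold at least 5, no member had a peak in any of the 8 lists, so 0 was left in every list, in both mean counts and in the count of members with a peak in every CON list. At a q-value of at most 0.05, 0 members were left in each brain list and in both means, 1 in FA0 and 1 in FA4, with 0 calls for FA0, 0 for FA4, 0 members in every CON list and 0 positions shared by brain and cells. With lists of equal length, the members with a peak came to 2 in NTD replicate 1, 1 in NTD replicate 3, 3 in CON replicate 2 and 12 in FA0, the mean was 2.67 peaks per NTD list, no member had a peak in every CON list, and 1 member was higher in FA0. With promoter, exon and intron peaks alone, 3 members had a peak in CON replicate 2 and 7 in FA4, 0 in every CON list, and 2 were higher in FA0 and 0 in FA4. In CON replicate 1, 4 members had a peak by the reference span plus 2 kb, and 1 without Mecom and Kdm4c (added after the data were seen). The cause of these shifts was not tested beyond the smaller number of peaks that each threshold leaves. Shares over all genes under these alternatives are not given here, so the counts have no background.

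Leaving out 1 list in turn, the members with a peak in every remaining NTD list ranged from 1 to 3 (3 without NTD replicate 3: Mecom, Cbx5 and Smchd1), and in every remaining CON list from 1 to 2 (2 without CON replicate 1: Mecom and Kdm3a). The mean member peaks ranged from 5.5 to 7 per NTD list and from 4.5 to 8.5 per CON list. The members with NTD above CON ranged from 0 to 1 (1 without NTD replicate 1, Morc2a), and with CON above NTD there were 0 each time. Shares over all genes are not given for these smaller sets of lists. With same-numbered lists paired as a replicate block, 0 members had all 3 differences of 1 sign in either direction (exact sign-flip test, smallest possible p = 0.25). Over all genes 1.75% had all 3 higher in NTD and 0.371% all 3 higher in CON. Same-numbered lists did not deviate together (correlations over genes of -0.0034, -0.0145 and -0.0147), and different-numbered lists gave -0.0125 to 0.0225. With most genes at 0 peaks in a list, this check cannot tell whether the numbers pair the lists. Of 127 recomputed values, 83 stayed within 1.5 times or 1 SD of the reported one and 44 did not.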
